A study of Mus musculus with 14 samples.

Results

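The 5 autosomal mouse genes that encode histone H3K4 demethylases, Kdm1a, Kdm1b, Kdm2b, Kdm5a and Kdm5b, were followed in all 8 RNA-seq libraries of the series. They were chosen by family and chromosome, though with earlier results of these data known. They were found by symbol among 38926 gene entries of the LSK and MyePro libraries. In the LT-HSC libraries they were found by Ensembl ID among 39179 entries. All 5 were found in both sets and all 5 passed the filters on low counts. The sex-linked relatives Kdm5c and Kdm5d are given only where they touch a result.

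Dpy30 knockout (KO) bone marrow cells were set against control cells in 3 sorted populations. KO cells carried the genotype Mx1-Cre; Dpy30F/-, with 1 floxed and 1 null allele of Dpy30, and control cells carried Mx1-Cre; Dpy30F/+, with 1 floxed and 1 wild-type allele. Both therefore carried the interferon-inducible Mx1-Cre transgene, and both were exposed to pIpC, the double-stranded RNA mimic that turns Mx1-Cre on. The cells came from mixed chimeras: irradiated CD45.1+ recipients received CD45.2+ donor marrow together with C57Bl/6J CD45.1+ competitor marrow, were given 4 doses of pIpC at 7.5 µg/g over 10 days from week 7, and were sampled 2 weeks after the last dose. The groups were KO and control LSK cells (lineage-negative, Sca-1+ and Kit+, rich in stem and multipotent cells), and KO and control MyePro cells, with 1 library per group pooled from 2 to 3 mice. Long-term hematopoietic stem cells (LT-HSC) gave 2 libraries labelled KO and 2 control libraries, 1 of each from transplants 1 and 2, pooled from 7 to 9 mice each. The labels call the LT-HSC donor-derived, do not state the donor gate of the other populations, and do not define the MyePro gate or give the age of the donors. A further 6 ChIP-seq samples were not analysed here.

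Methyl groups on lysine 4 of histone H3 mark promoters and enhancers. They are placed by the SET1 and MLL complexes, which share the DPY30 subunit, and are taken off by demethylases of unlike chemistry. KDM1A (LSD1) and KDM1B (LSD2) are flavin-dependent amine oxidases that remove mono- and dimethyl marks. KDM5A and KDM5B are Jumonji-type oxygenases that act on di- and trimethyl marks. KDM2B is a Jumonji protein better known for its activity on H3K36 and for a CXXC zinc finger that binds unmethylated CpG and brings a variant Polycomb complex to CpG islands; its action on H3K4 is debated. In blood formation KDM1A is known as the enzyme through which the repressors GFI1 and GFI1B act, and KDM2B and KDM5B have been studied as regulators of stem and leukemic cells.

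The genes lie on 5 chromosomes in build GRCm38.p6. Kdm1a (ENSMUSG00000036940) lies on chromosome 4 from 136550533 to 136602787, and Kdm1b (ENSMUSG00000038080) on chromosome 13 from 47043373 to 47085279. Kdm2b (ENSMUSG00000029475) lies on chromosome 5 from 122870664 to 122989270. Kdm5a (ENSMUSG00000030180) lies on chromosome 6 from 120364099 to 120444574, and Kdm5b (ENSMUSG00000042207) on chromosome 1 from 134560178 to 134632878. RefSeq promoter windows were found for 4 of the 5, Kdm1a, Kdm1b, Kdm2b and Kdm5b. They are shown because H3K4 methylation is concentrated at CpG-rich starts, and because Kdm2b has starts far apart, so that its gene-level count merges transcripts from each. The windows hold the 150 bases just before a transcript start, 5′ to 3′ on the gene's strand, with each CpG in capitals, at chr4:136602724-136602873 (minus), chr13:47043349-47043498 (plus), chr5:122989100-122989249 (minus, the distal Kdm2b start), chr5:122900351-122900500 (minus, the internal Kdm2b start) and chr1:134560028-134560177 (plus).
Kdm1a: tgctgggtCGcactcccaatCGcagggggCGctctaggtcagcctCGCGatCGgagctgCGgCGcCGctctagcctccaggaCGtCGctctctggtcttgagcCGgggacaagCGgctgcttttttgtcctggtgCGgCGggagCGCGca
Kdm1b: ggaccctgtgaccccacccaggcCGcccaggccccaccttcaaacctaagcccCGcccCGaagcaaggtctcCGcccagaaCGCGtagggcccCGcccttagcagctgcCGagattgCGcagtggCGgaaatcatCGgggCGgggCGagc
Kdm2b, distal start: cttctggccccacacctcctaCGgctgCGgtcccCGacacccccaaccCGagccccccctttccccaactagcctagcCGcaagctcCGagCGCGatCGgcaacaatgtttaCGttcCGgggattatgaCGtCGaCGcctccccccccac
Kdm2b, internal start: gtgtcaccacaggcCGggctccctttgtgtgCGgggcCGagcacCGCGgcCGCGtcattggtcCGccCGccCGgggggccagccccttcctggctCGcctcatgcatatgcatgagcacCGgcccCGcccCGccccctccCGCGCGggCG
Kdm5b: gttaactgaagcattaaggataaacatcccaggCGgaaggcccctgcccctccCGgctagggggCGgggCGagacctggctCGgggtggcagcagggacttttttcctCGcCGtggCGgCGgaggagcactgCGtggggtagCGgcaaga

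The 250 bases before these starts held 21 CpG in Kdm1a, 22 in Kdm1b, 27 at the distal and 38 at the internal Kdm2b start, and 13 in Kdm5b. A further Kdm2b start near the distal one, at 122988507, had 12, a number reached in 33.5% of all windows. The median over 32851 RefSeq windows was 6. At least as many CpG were present in 16.3% of all windows for Kdm1a, 14.8% for Kdm1b, 8.56% and 1.88% for the distal and internal Kdm2b starts, and 31.5% for Kdm5b. The letters TATAAA, read on both strands, were in none of these upstream stretches and in 12.4% of all windows. The internal Kdm2b start is the one from which a short form without the Jumonji domain is made, as known for this gene, and the counts used here do not separate it from the long form.

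The libraries held 6130320 gene counts in KO LSK, 14974432 in control LSK, 11531994 in KO MyePro and 20820762 in control MyePro, and 38060087 to 85499797 in LT-HSC. Dpy30 stood at 42.4 CPM in KO LSK and 78.0 CPM in control LSK, and at 51.9 CPM in KO MyePro and 113 CPM in control MyePro (CPM, counts scaled to 1e+06 per library with TMM normalization). In LT-HSC it stood at 14.1 and 4.67 CPM in the libraries labelled KO and 12.9 and 8.43 CPM in control, so with TMM the library labelled KO of transplant 1 was not lower; with library totals it was, at 8.18 and 5.88 CPM in the libraries labelled KO and 15.6 and 9.59 CPM in control. Mitochondrial ribosomal RNA took 62.4% and 49.3% of gene counts in the libraries labelled KO and 45.1% and 49.6% in control. The Y-linked Kdm5d had 0 counts in both LT-HSC libraries labelled KO, against 29.8 and 19.2 CPM in control, and Xist, the RNA of the inactive X, stood at 2170 and 1500 CPM against 239 and 150 CPM. In LT-HSC genotype and sex of the donors thus cannot be told apart. The 4 LSK and MyePro libraries all expressed Kdm5d, at 23 CPM in KO LSK, 29.0 CPM in control LSK, 19.8 CPM in KO MyePro and 22.4 CPM in control MyePro, and held 1 to 7 Xist counts. The summed stem cell markers stood at 597 and 520 CPM in LT-HSC labelled KO and 602 and 363 CPM in control, with no marker at 0. Of the genes for the LSK gate, Kit stood at 393 CPM in KO LSK and 491 CPM in control LSK, and Ly6a, which encodes Sca-1, at 62.2 CPM in KO LSK and 31.5 CPM in control LSK.

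In myeloid progenitors Kdm2b differed most: it stood at 47.6% of its control level in the KO library. Kdm1a, Kdm5a and Kdm5b also stood lower, at 68.5% to 78.0% of control, and Kdm1b stood at the control level. In LSK cells Kdm2b and Kdm5b stood lower, Kdm1b stood higher, and Kdm1a and Kdm5a were within 10% of control. In LT-HSC none of the 5 genes passed the test. With 1 library per group, no difference in LSK or MyePro has a replicate check, and those values carry no p. Their 95% intervals cover counting error only. They may be too narrow even for that, since reads without molecular identifiers are not independent molecules.

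**Figure D1:**
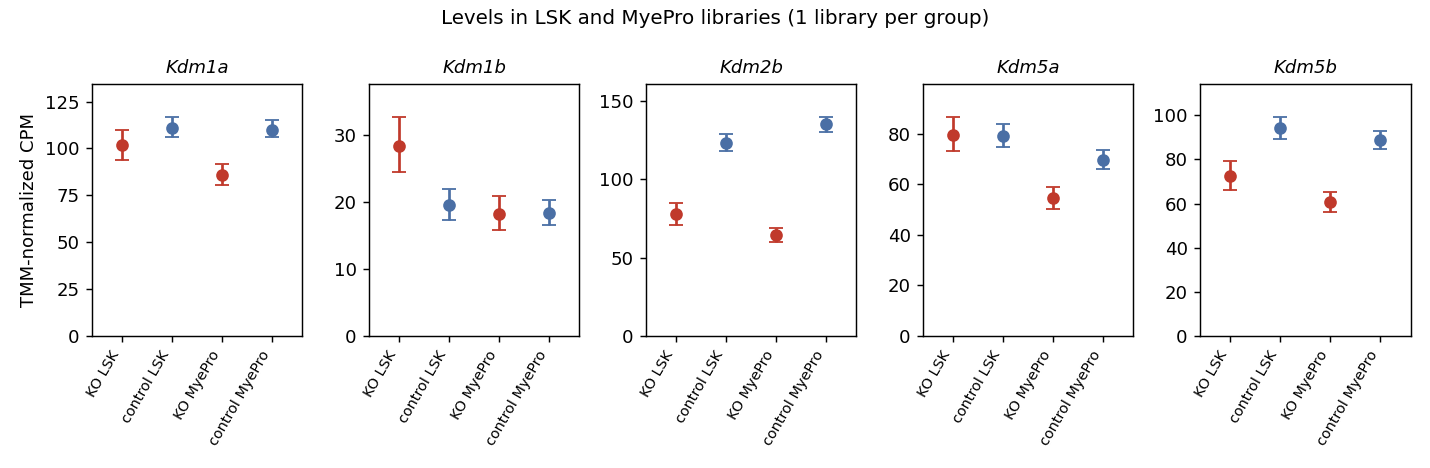
Levels of the 5 genes in CPM with TMM normalization (vertical axes, each from 0) in KO LSK, control LSK, KO MyePro and control MyePro; points are single libraries, KO in red, and bars are 95% intervals for counting error. Kdm2b stands at 77.6 and 64.3 CPM in the KO libraries, apart from 123 and 135 CPM in the controls.

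Kdm2b, the CpG-binding member, was counted 513 times in KO LSK, 1816 times in control LSK, 729 times in KO MyePro and 2697 times in control MyePro. Scaled by depth it stood at 77.6 CPM in KO LSK and 123 CPM in control LSK, and at 64.3 CPM in KO MyePro and 135 CPM in control MyePro. Both KO libraries were below both control libraries, and no 2 of the 4 counting intervals overlapped. The log2 ratio of KO to control was -0.67 in LSK (interval -0.81 to -0.53) and -1.07 in MyePro (interval -1.19 to -0.95), or 62.9% and 47.6% of the control level. In MyePro it was the only 1 of the 5 past a 2-fold difference, and it stayed past 2-fold under every scaling tried, at -1.03 to -1.11. In KO MyePro a difference of 2-fold or more was seen in 7.91% of 10245 genes on the low side and 11.3% on the high side (genes averaging 5 CPM or more), so 1 lower gene among 5 is not far from the background. By size, 6.6% of genes had a lower MyePro ratio than Kdm2b and 10.1% of 10311 genes had a lower LSK ratio.

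Kdm5b, a trimethyl H3K4 demethylase, had 478 counts in KO LSK, 1389 in control LSK, 689 in KO MyePro and 1770 in control MyePro. These made 72.3 CPM in KO LSK and 94.3 CPM in control LSK, and 60.7 CPM in KO MyePro and 88.7 CPM in control MyePro. As for Kdm2b, the KO libraries were both below the controls, while the 2 control intervals overlapped each other. The log2 ratio was -0.38 in LSK (interval -0.54 to -0.23) and -0.55 in MyePro (interval -0.68 to -0.42). In LSK 21.9% and in MyePro 22.3% of genes had a lower ratio.

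Kdm5a, the close relative of Kdm5b, had 526 counts in KO LSK, 1165 in control LSK, 617 in KO MyePro and 1391 in control MyePro. Its level was 79.6 CPM in KO LSK and 79.1 CPM in control LSK, and 54.4 CPM in KO MyePro and 69.7 CPM in control MyePro. The LSK libraries were level and only the KO MyePro library stood apart on the low side. The log2 ratio was 0.01 in LSK (interval -0.14 to 0.16) and -0.36 in MyePro (interval -0.50 to -0.22). In that pair of LSK libraries the counting interval of Kdm5b lay wholly below that of Kdm5a.

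Kdm1a, the flavin-dependent partner of CoREST, had 672 counts in KO LSK, 1641 in control LSK, 975 in KO MyePro and 2198 in control MyePro. It stood at 102 CPM in KO LSK and 111 CPM in control LSK, and at 86.0 CPM in KO MyePro and 110 CPM in control MyePro. The 2 controls and KO LSK lay close together and KO MyePro stood below them. The log2 ratio was -0.13 in LSK (interval -0.26 to -0.0022) and -0.36 in MyePro (interval -0.47 to -0.25). Scaled by library totals alone the LSK ratio was 0.00042, so its direction depended on the scaling.

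Kdm1b, the second flavin-dependent enzyme and in mouse known for its part in oocyte imprints, had the fewest counts. They were 188 in KO LSK, 288 in control LSK, 207 in KO MyePro and 368 in control MyePro. Its level was 28.4 CPM in KO LSK and 19.6 CPM in control LSK, and 18.2 CPM in KO MyePro and 18.4 CPM in control MyePro. KO LSK stood above the other libraries, whose intervals overlapped. The log2 ratio was 0.54 in LSK (interval 0.27 to 0.81) and -0.01 in MyePro (interval -0.27 to 0.23), and 87.5% of genes had a lower LSK ratio. The MyePro ratio took either sign, at -0.06 to 0.02, over the scalings tried.

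None of the 5 was past 2-fold in LSK, where 5.38% of genes were so far below control and 4.98% so far above it. Of the 5, 3 had a ratio below 0 in LSK and 5 in MyePro, against 53.5% and 55% of all genes. The median of the 5 was -0.13 in LSK and -0.36 in MyePro, beside -0.04 and -0.08 over all genes. One of the MyePro signs, that of Kdm1b, rests on a ratio of -0.01.

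**Figure D2:**
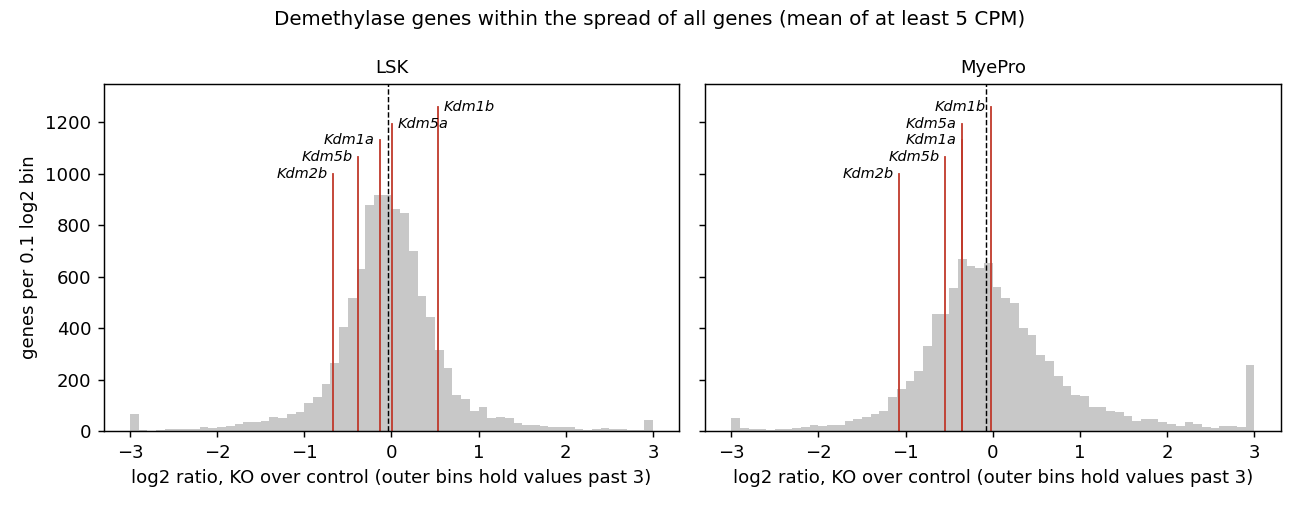
Number of genes (vertical axis) by log2 ratio of KO to control (horizontal axis) in LSK and MyePro, with the 5 demethylase genes as red lines and the median of all genes dashed. Kdm2b, at -0.67 in LSK and -1.07 in MyePro, is the leftmost of the 5 in both.

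Markers of other cell types differed between the same libraries. In MyePro the summed level of 10 erythroid markers was 441 CPM in KO and 3570 CPM in control, with none at 0. The sum of 10 megakaryocyte markers was 1690 CPM in KO and 153 CPM in control, where Gp6 was at 0. That of 8 mature neutrophil markers was 619 CPM in KO and 26.2 CPM in control, with Camp at 0 in both. Most of it in KO was Lcn2, S100a8 and S100a9, at 316, 228 and 64.4 CPM, and only 3 of the 8 averaged 5 CPM or more. In KO MyePro Ltf had 7 counts and Retnlg 1, and Mmp8 stood at 3.17 CPM in KO and 2.46 CPM in control. The sum of 8 myeloid progenitor markers was 6880 CPM in KO and 11300 CPM in control, with Mpo alone at 2120 and 6400 CPM. These markers went both ways: 4 of the 8 had a ratio below 0, with a median of -0.08. Past 2-fold stood 2 on the low side and 2 on the high side, among them Ms4a3 at 1070 CPM in KO and 387 CPM in control. In LSK the erythroid sum was 81.4 CPM in KO, with Slc4a1 at 0, and 853 CPM in control. The sum of 7 stem cell markers was 214 CPM in KO LSK and 397 CPM in control LSK, and 145 CPM in KO MyePro and 32.5 CPM in control MyePro, with none at 0. The T and NK cell sum was 585 CPM in KO LSK and 203 CPM in control LSK, and 647 CPM in KO MyePro and 206 CPM in control MyePro, with 1 to 3 of 8 markers at 0. Most of it was Nkg7, at 451 CPM in KO LSK, 197 CPM in control LSK, 517 CPM in KO MyePro and 197 CPM in control MyePro. Other markers of the list differed by more. Gzmb stood at 105 CPM in KO LSK, 4.62 CPM in control LSK, 105 CPM in KO MyePro and 9.22 CPM in control MyePro. Klrb1c stood at 27.8 CPM in KO LSK, 0.883 CPM in control LSK, 17.8 CPM in KO MyePro and 0.15 CPM in control MyePro. The T cell genes Cd3e, Cd3d, Cd3g and Trbc2 had only 0 to 7 counts each in these libraries. The macrophage and dendritic cell sum was 282 CPM in KO LSK and 129 CPM in control LSK, and 460 CPM in KO MyePro and 136 CPM in control MyePro, with none of 8 at 0. The LSK neutrophil sum was 172 CPM in KO, with Ltf at 0, and 11.3 CPM in control, with S100a8, S100a9 and Retnlg at 0. Most of it in KO LSK was Lcn2 and S100a8, at 94.2 and 60.4 CPM. In such bulk libraries fewer cells of a type and less RNA per cell cannot be told apart, and the part of these markers in the demethylase ratios was not tested.

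The step from LSK to MyePro was small for all 5 genes in control cells. Control MyePro over control LSK gave log2 ratios of -0.02 for Kdm1a (interval -0.11 to 0.08), -0.08 for Kdm1b (interval -0.31 to 0.14), 0.13 for Kdm2b (interval 0.05 to 0.22), -0.18 for Kdm5a (interval -0.30 to -0.07) and -0.09 for Kdm5b (interval -0.19 to 0.01). Kdm2b was thus the only 1 of the 5 above 0 in that pair of libraries, apart from Kdm1a at 0.01 when the TMM factors were computed over all gene entries. None was past 2-fold, a size reached by 7.21% of 10059 genes on the low side and 3.01% on the high side.

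In KO cells all 5 stood lower in MyePro than in LSK. The log2 ratio of KO MyePro to KO LSK was -0.24 for Kdm1a (interval -0.39 to -0.10), -0.64 for Kdm1b (interval -0.93 to -0.35), -0.27 for Kdm2b (interval -0.44 to -0.11), -0.55 for Kdm5a (interval -0.72 to -0.38) and -0.25 for Kdm5b (interval -0.42 to -0.08). Kdm1b and Kdm5a stood furthest below 0, with 4.55% and 6.34% of 10366 genes lower still. None was past 2-fold, a size reached by 1.53% of genes on the low side and 3.16% on the high side. The median of the 5 was -0.27 in KO and -0.08 in control, beside 0.001 and 0.05 over all genes.

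The ratio of MyePro to LSK in KO less that in control was -0.22 for Kdm1a (interval -0.39 to -0.06), -0.55 for Kdm1b (interval -0.91 to -0.19), -0.40 for Kdm2b (interval -0.59 to -0.22), -0.37 for Kdm5a (interval -0.57 to -0.16) and -0.16 for Kdm5b (interval -0.36 to 0.03). Only the interval of Kdm5b held 0. These 5 differences use all 4 libraries, each standing alone for its group, and were not tested.

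In order of level, Kdm2b ran from control MyePro through control LSK and KO LSK to KO MyePro, each step wider than counting error. For Kdm5b control LSK and control MyePro were level, then came KO LSK and KO MyePro. For Kdm1a only KO MyePro was set apart from the next library by its counting interval. For Kdm5a the 2 LSK libraries were level and control MyePro and KO MyePro followed, each lower than the last. For Kdm1b KO LSK was above 3 libraries whose counting intervals overlapped.

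The LT-HSC libraries are the only ones with replicates, although the replicates are pools of mice and p-values measure only the spread between pools. At an adjusted p under 0.05 (edgeR quasi-likelihood test, Benjamini-Hochberg adjusted over 12844 genes) 2 genes were called, 0.0156% of those tested. These were the Y-linked Kdm5d and Eif2s3y, and no autosomal H3K4 demethylase was among them. At an unadjusted p under 0.05 the same test gave 130 genes higher and 164 lower, again with 0 of the 5, and DESeq2 and limma-voom called 0 of the 5 as well.

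**Figure D3:**
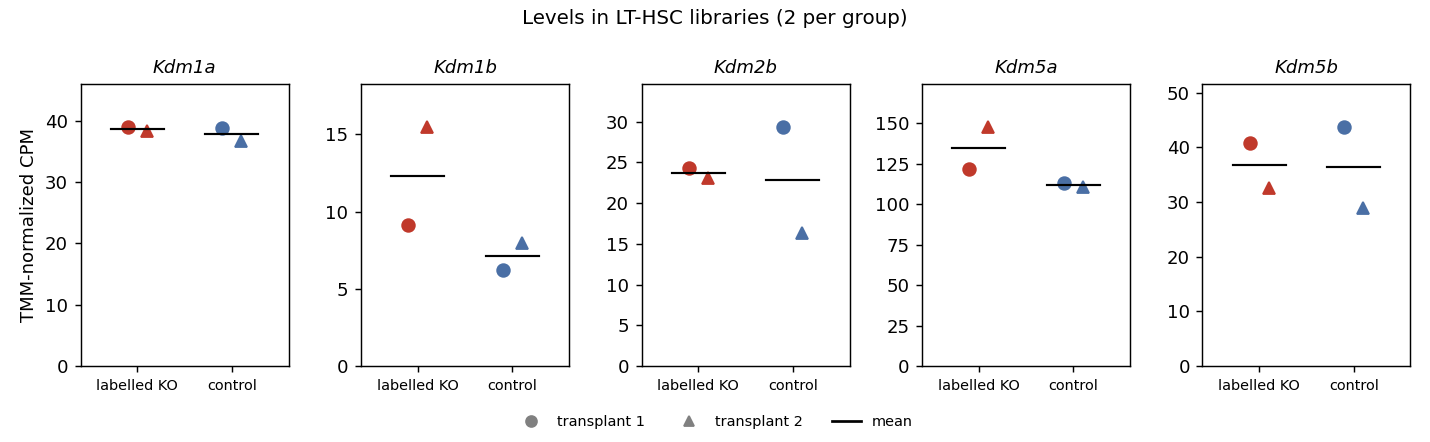
Levels of the 5 genes in LT-HSC in CPM with TMM normalization (vertical axes, each from 0); circles are transplant 1, triangles transplant 2, red the libraries labelled KO, blue control, and lines the means. With this scaling Kdm1b and Kdm5a have both libraries labelled KO above both controls; with library totals they do not.

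Kdm1b stood at 9.13 and 15.5 CPM in the LT-HSC libraries labelled KO and at 6.22 and 7.99 CPM in control. With TMM both libraries labelled KO were above both controls. Scaled by library totals alone the levels were 5.30 and 19.5 CPM in those labelled KO and 7.49 and 9.09 CPM in control, so the groups overlapped. The means were 12.3 ± 4.51 CPM and 7.11 ± 1.26 CPM (SD, n = 2 each). The log2 fold change was 0.79 ± 0.474 (SE, 95% interval -0.33 to 1.92), with an unadjusted p of 0.137 and an adjusted p of 0.9995 by edgeR. Without the library labelled KO of transplant 1, whose Dpy30 was not lower with TMM, it was 1.127, and without the one of transplant 2 it was 0.36.

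Kdm5a stood at 122 and 148 CPM in the libraries labelled KO and at 113 and 111 CPM in control. With TMM both libraries labelled KO lay above both controls, while with library totals the levels were 70.9 and 186 CPM in those labelled KO and 136 and 126 CPM in control, and overlapped. The means were 135 ± 17.9 CPM and 112 ± 1.48 CPM (SD, n = 2 each), and the log2 fold change was 0.27 ± 0.250 (SE, 95% interval -0.32 to 0.86; edgeR adjusted p = 0.9995). It was 0.40 without the library labelled KO of transplant 1, 0.13 without that of transplant 2, and -0.026 with library totals. With TMM, groups without overlap were found in 13.8% of genes on the higher and 13.9% on the lower side, and 2 of the 5, Kdm1b and Kdm5a, lay on the higher side. Neither did so with library totals.

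With TMM Kdm1a was nearly level over the 4 LT-HSC libraries, at 39.0 and 38.3 CPM in those labelled KO and 38.8 and 36.7 CPM in control. Its log2 fold change was 0.03 ± 0.259 (SE, 95% interval -0.58 to 0.65; edgeR adjusted p = 0.9995). Kdm2b stood at 24.3 and 23.1 CPM in libraries labelled KO and 29.4 and 16.3 CPM in control. The 2 controls were further apart from each other than from either library labelled KO, and the log2 fold change was 0.05 ± 0.367 (SE, 95% interval -0.81 to 0.92; edgeR adjusted p = 0.9995). Kdm5b stood at 40.9 and 32.6 CPM in libraries labelled KO and 43.8 and 28.9 CPM in control. The groups overlapped for Kdm5b, and the log2 fold change was 0.02 ± 0.317 (SE, 95% interval -0.73 to 0.76; edgeR adjusted p = 0.9995). With TMM the intervals of Kdm1a and Kdm5b do not reach -1, nor does that of Kdm2b. With library totals, for which no interval is given, the fold changes were -0.32 for Kdm1a, -0.32 for Kdm2b and -0.40 for Kdm5b.

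Within transplants, the log2 ratio of Kdm2b was -0.27 in transplant 1 and 0.49 in transplant 2, and that of Kdm5b was -0.10 and 0.17. The ratio of Kdm1b was 0.52 and 0.91, that of Kdm5a 0.12 and 0.41, and that of Kdm1a 0.01 and 0.06. The libraries labelled KO were thus higher in both transplants for 3 of 5 genes, Kdm1a by very little, against 24.9% of all genes tested. The TMM factor of the library labelled KO of transplant 1 was 0.580, against 1.14 to 1.26 in the other 3 LT-HSC libraries. With library totals all 5 genes stood lower than control in transplant 1 and higher in transplant 2, so these directions depended on the scaling. The median fold change of the 5 was 0.05, beside 0.003 over all genes.

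**Figure D4:**
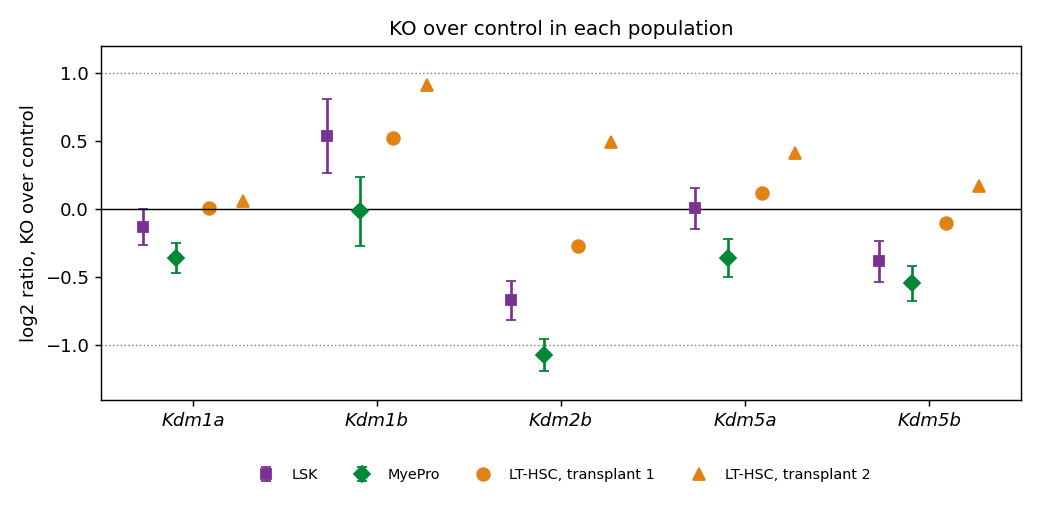
Log2 ratio of KO to control (vertical axis) for each gene in LSK, MyePro and the 2 LT-HSC transplants; bars are 95% counting intervals and dotted lines mark a 2-fold difference. Kdm2b in MyePro, at -1.07, is the only point past a dotted line.

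Partners of the enzymes are given from lists drawn up by complex. For each list below, the shares over all genes stand beside its counts as background. Of all genes 53.5% had a ratio below 0 in LSK and 55% in MyePro. Past 2-fold on the low side stood 5.38% of genes in LSK and 7.91% in MyePro. Of 14 CoREST-type partners of KDM1A, 10 had a ratio below 0 in LSK and 8 in MyePro, with medians of -0.38 and -0.32. Past 2-fold stood Rcor2 in LSK, a CoREST scaffold at 4.54 CPM in KO and 13.4 CPM in control (log2 ratio -1.53), and Gfi1b in MyePro. In MyePro Rcor2 stood at 7.49 CPM in KO and 4.46 CPM in control (log2 ratio 0.73). Gfi1b, the repressor of erythroid and megakaryocyte cells that works through KDM1A, stood at 52.2 CPM in KO MyePro and 192 CPM in control MyePro (log2 ratio -1.88), beside the lower erythroid and the higher megakaryocyte marker sum in that library. The main scaffold gene Rcor1 stood at 67.4 CPM in KO MyePro and 126 CPM in control MyePro, a ratio of -0.91. Others went the opposite way. Gfi1 stood at 60.3 CPM in KO MyePro and 39.1 CPM in control MyePro (log2 ratio 0.62). In LSK it stood at 42.1 CPM in KO and 25.2 CPM in control (log2 ratio 0.74). Hmg20b stood at 57.6 CPM in KO MyePro and 35.0 CPM in control MyePro (log2 ratio 0.71). Glyr1, the partner of KDM1B, had ratios of -0.11 in LSK and -0.29 in MyePro.

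Of 9 partners of KDM2B in variant Polycomb complex PRC1, 5 had a ratio below 0 in LSK and 6 in MyePro, with medians of -0.10 and -0.30. Bcorl1, a corepressor subunit, stood at 10.4 CPM in KO LSK and 22.9 CPM in control LSK (log2 ratio -1.12). Usp7, a ubiquitin protease, stood at 136 CPM in KO MyePro and 289 CPM in control MyePro (log2 ratio -1.09). Others went the opposite way: Rnf2, the E3 ligase of the complex, stood at 89.2 CPM in KO MyePro and 60.9 CPM in control MyePro, a ratio of 0.55.

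Of 16 KDM5 and SIN3 partners, 8 had a ratio below 0 in LSK and 13 in MyePro, with medians of 0.03 and -0.11. Morf4l2, a protein of SIN3 complexes, was the only 1 past 2-fold, at 192 CPM in KO MyePro and 396 CPM in control MyePro (log2 ratio -1.05). Of 17 other histone lysine demethylases, 15 were measured, of which 8 were below 0 in LSK and 12 in MyePro, with medians of -0.10 and -0.35. Kdm6b, an H3K27 demethylase, stood at 11.6 CPM in KO LSK and 28.0 CPM in control LSK and at 11.3 CPM in KO MyePro and 27.8 CPM in control MyePro, ratios of -1.26 and -1.29. Kdm8 stood at 7.41 CPM in KO MyePro and 17.1 CPM in control MyePro (log2 ratio -1.19). The median of the H3K4 demethylases in MyePro, -0.36, thus lay close to that of the other demethylases.

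Of 19 genes of the H3K4 methyltransferase complexes, 16 had a ratio below 0 in LSK and 18 in MyePro, with medians of -0.28 and -0.39. Dpy30, the deleted gene, was the only 1 past 2-fold in MyePro, at -1.13. In LSK none was past 2-fold, and Dpy30 stood at -0.88. In LT-HSC none of these partner and family genes was among the 2 genes called, and Gfi1b, Kdm4b and Kdm6a had an unadjusted p under 0.05 by edgeR. There 16 of the 19 methyltransferase complex genes had a negative fold change, with a median of -0.20, against 49.7% of all genes tested and a median of 0.003. Of the 5 demethylase genes 0 had one, though Kdm1a, Kdm2b and Kdm5b stood at only 0.03, 0.05 and 0.02. Both counts are with TMM. With library totals Kdm1a, Kdm2b, Kdm5a and Kdm5b had negative fold changes, at -0.32, -0.32, -0.026 and -0.40. The median of all genes was then -0.347.

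**Figure D5:**
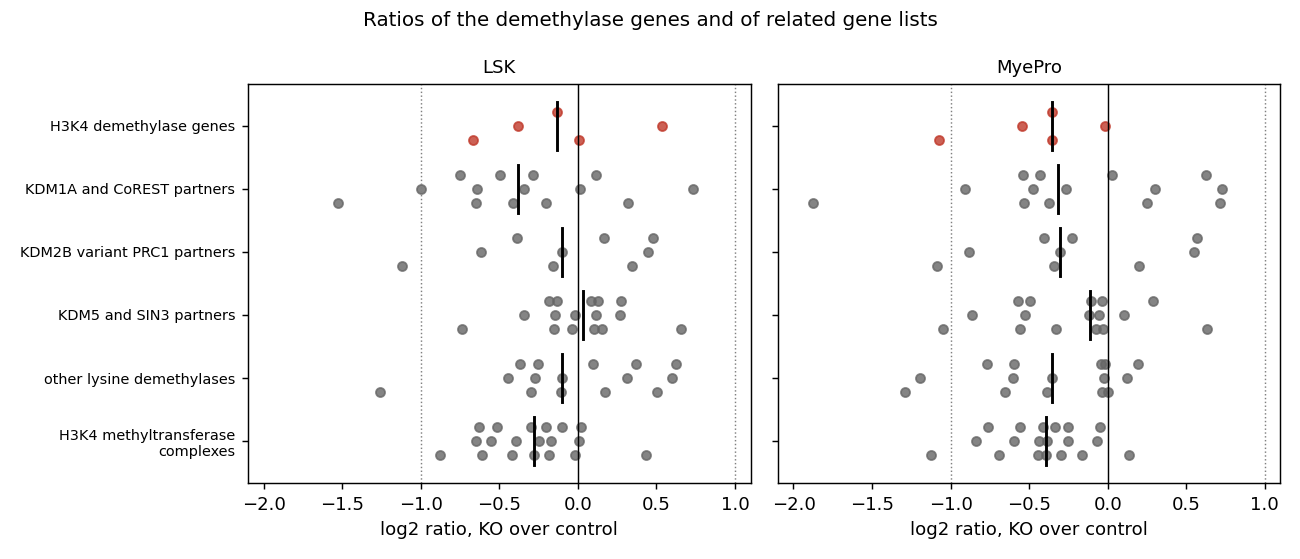
Log2 ratio of KO to control (horizontal axis) in LSK and MyePro for the 5 demethylase genes (red) and 5 related lists (grey, 1 point per gene, spread vertically for legibility); black bars are medians and dotted lines a 2-fold difference. In MyePro the medians run from -0.39 for the methyltransferase complexes to -0.11 for the KDM5 and SIN3 partners.

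The 5 genes were also compared by their pattern over the 8 libraries. After centring each gene within the 4 LSK and MyePro libraries and within the 4 LT-HSC libraries, the Euclidean distance in log2 CPM was 0.406 between Kdm1a and Kdm5a and 0.509 between Kdm2b and Kdm5b, and 1.69 between Kdm1b and Kdm2b. The median distance of all genes was 0.873 from Kdm1a, 1.28 from Kdm2b and 1.44 from Kdm1b. Of 7636 genes 142 were closer to Kdm2b than Kdm5b was, 432 closer to Kdm1a than Kdm5a was, and 178 closer to Kdm1b than Kdm5a was. Among 7636 genes, the closest to Kdm2b were Knop1, Ubtf and Rab3gap2, at 0.166 to 0.212. Dpp8, Rnf4 and Ppp1r7 were closest to Kdm1a, at 0.115 to 0.152. Kdm5a had Pogz, Zfp868 and Rfx7, at 0.165 to 0.258, and Kdm5b had Rprd1b, Parp1 and Nono, at 0.162 to 0.167. Kdm1b had no gene as close, with Tigd2, Rnf19b and Sugp1 at 0.398 to 0.421. No p is given, since depth and cell makeup are shared by all genes of a library.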

How the data were processed

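Values are the authors' deposited raw counts per gene for 8 libraries. PolyA+ RNA was selected and LT-HSC RNA was amplified with Ovation RNA-seq System V2, per the labels' protocols, so LT-HSC levels are not set beside the others. Per the submitters' processing notes, the tools included CASAVA 1.8.4, TopHat2, Picard 1.126 and HTSeq 0.6.0 with build mm10; a strand setting is not given in the sources used here. Overlapping genes could therefore share reads. Sharing between close relatives was not tested, but Kdm5d had 0 counts in both LT-HSC libraries labelled KO, where Kdm5c had 1366 and 3038.

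Non-gene entries were dropped (reads without a feature were 2.4% to 26% of a file). LT-HSC were fitted with edgeR 4.0.16 (R 4.3.3), genes with at least 1 CPM in 2 of 4 libraries, no block. The labels give same-numbered LT-HSC libraries 1 shared transplant, which pairs them; their deviations from group means correlated at 0.292. LSK and MyePro ratios used TMM factors over genes averaging 1 CPM or more, with 2 as prior count, and genes averaging 5 CPM or more were counted. Intervals of levels are exact Poisson and those of ratios exact binomial, at 95%; those of the difference between ratios are normal approximations. Within-transplant ratios add 0.5 CPM.

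The members, lists and alternatives were chosen with earlier results of these data known. Named besides the members were Dpy30, sex-linked genes and up to 4 genes per list past the threshold or 2-fold. The 3 genes nearest to each member were named too. Rcor1, Rnf2, Glyr1, Gfi1 and Hmg20b were named after their values were seen. Sequences are from RefSeq, GRCm38.p6. Alternatives are given in the closing section.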

Additional observations from a re-analysis of the deposited data

Results flagged for a closer look

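For 3 genes the KO to control ratios had opposite signs in 2 populations, several of them close to 0. Both LT-HSC transplants had to share a sign for a gene to be flagged. Kdm2b and Kdm5b, whose transplants differed in sign, were thus left out. Their LT-HSC fold changes were 0.05 and 0.02, beside MyePro ratios of -1.07 and -0.55. None of these differences was tested, since LSK and MyePro have 1 library per group, and no LT-HSC fold change of the 5 passed its own test. Kdm1b had ratios above 0 in both LT-HSC transplants and in LSK, and -0.01 in MyePro, where its sign changed with the scaling; the KO to control log2 ratio in LT-HSC less that in MyePro was 0.81, and that in LSK less that in MyePro was 0.55. Kdm5a had ratios of 0.12 and 0.41 in the LT-HSC transplants, 0.01 in LSK and -0.36 in MyePro, a difference of 0.63 between LT-HSC and MyePro and of 0.37 between LSK and MyePro. Kdm1a, at 0.01 and 0.06 in the LT-HSC transplants, differed by 0.17 from LSK and by 0.39 from MyePro. With library totals the ratios of all 3 genes in LT-HSC transplant 1 were below 0. The LT-HSC libraries differ from the others in amplification and in sex-linked transcripts, and the part of either was not tested.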

How the results depend on the processing

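None of the 5 autosomal demethylase genes passed the LT-HSC threshold under any of the alternatives run. With the replicate block (transplant) 4 genes were called in LT-HSC in place of 2, and the fold changes of the 5 kept their direction, Kdm1b at 0.76; the block changed no other call. LT-HSC calls numbered 4 with library totals, 4 with no filter on low counts, 4 at 5 CPM or more, 0 with mitochondrially encoded genes left out, 14 with DESeq2 and 1 with limma-voom. Leaving out 1 library gave 0 to 5. Scaled by library totals, which moved the median of all LT-HSC genes to -0.347, the fold changes were -0.32 for Kdm1a, -0.32 for Kdm2b, -0.026 for Kdm5a and -0.40 for Kdm5b. Leaving out 1 library moved Kdm5b between -0.24 and 0.36 and Kdm2b between -0.30 and 0.55: Kdm5b was -0.16 without KO LT-HSC 1 and -0.24 without control LT-HSC 2, and Kdm2b was -0.30 without control LT-HSC 2. The cause was not tested.

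Counts of genes past 2-fold depend on the filter by construction. At a mean of at least 1 CPM they were 2075 in LSK, 3275 in MyePro, 1825 for MyePro over LSK in control and 1335 in KO; at 20 CPM they were 454, 1068, 472 and 177. With library totals, which moved the median of all LSK genes to 0.0944, the LSK split was 648 higher and 457 lower in place of 514 and 555, Kdm1a in LSK was 0.00042, and the split for MyePro over LSK in KO was 246 higher and 234 lower in place of 328 and 159. Of the single-gene ratios in LSK and MyePro, 99 values under alternatives stayed within the counting interval. The computation of TMM factors over all gene entries was added after seeing the data. KO LSK, the shallowest library, and Kdm1b, with 188 counts there, set the widest intervals.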

Other observations

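Outside the rule for named genes, and chosen after their values were seen, 3 genes related to the demethylases had groups without overlap in LT-HSC (13.8% of all genes on the higher and 13.9% on the lower side) and an unadjusted p under 0.05 (130 genes higher and 164 lower of 12844), and none passed the threshold. Kdm4b, an H3K9 demethylase, stood at 6.65 and 9.33 CPM in the libraries labelled KO and 1.08 and 2.06 CPM in control (log2 fold change 2.35, edgeR unadjusted p = 0.00814, adjusted p = 0.9995). In LSK it stood at 44.9 CPM in KO and 29.5 CPM in control, and in MyePro at 29.4 and 30.4 CPM. Kdm6a, an X-linked H3K27 demethylase known to escape X inactivation, stood at 80.3 and 79.8 CPM in the libraries labelled KO and 56.4 and 49.2 CPM in control (log2 fold change 0.60, edgeR unadjusted p = 0.0459, adjusted p = 0.9995); with library totals it stood at 46.6 and 100 CPM in the libraries labelled KO and 67.9 and 56.0 CPM in control and overlapped. The sex of the donors and genotype cannot be told apart there. In LSK and MyePro, where all 4 libraries expressed Y-linked genes, its ratios were -0.10 and -0.38.

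Gfi1b, the partner of KDM1A, stood at 21.5 and 16.1 CPM in LT-HSC labelled KO and 36.5 and 28.4 CPM in control (log2 fold change -0.79, edgeR unadjusted p = 0.0434, adjusted p = 0.9995), and at 51.0 CPM in KO LSK and 102 CPM in control LSK. The summed erythroid markers in LT-HSC were 46.3 and 64.1 CPM in the libraries labelled KO and 135 and 121 CPM in control, and their part in the Gfi1b values was not tested. The transcript levels of Gfi1b were thus below control in every KO and labelled KO library of the series. Gfi1 stood above control in KO LSK and KO MyePro, and its LT-HSC groups overlapped. With TMM the levels of Kdm1a were even in LT-HSC. With library totals Kdm1a stood at 22.6 and 48.2 CPM in the libraries labelled KO and 46.7 and 41.7 CPM in control.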
